A study of Bos taurus with 20 samples.

Results

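Serpins, secreted cystatins and tissue kallikreins were followed in the endometrium of 10 cows (Bos taurus), with 2 samples from each animal after calving. A probe was included if its gene name on the array began with SERPIN, or was CST or KLK followed by digits. SERPINA14 and CST6, with 1 probe each, were kept out by that rule, and the 2 probes of CST9L do not meet it. This gave 49 of 25325 gene names on the array and 96 of 43653 probes: 75 for 33 serpin genes, 5 for 3 cystatin genes and 16 for 13 kallikrein genes. The early biopsies date from day 42 to day 86 after calving, with a mean of 60.1 ± 13.3 days (SD, n = 10 cows). The late ones date from day 343 to day 436, with a mean of 388.9 ± 27.5 days. No treatment, breed or age is given in the sources used here, and every biopsy was from the uterine horn next to the ovary with the corpus luteum, on day 7 after oestrus. The late biopsy always followed the early one, so age and order of sampling cannot be told apart from the period.

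Serpins are large proteins that trap a serine protease by changing shape after it cuts their reactive loop, and some members have lost inhibition and act as chaperones or hormone carriers. Cystatins block cysteine cathepsins. Tissue kallikreins are secreted serine proteases that often activate each other, and several are targets of serpins. In the uterus these families bear on clotting and fibrinolysis, on proteases released by leukocytes, on collagen folding and on the protein content of uterine fluid. Roles below are those known for the human or mouse proteins, and gene names are those of the array's design.

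The arrays carry 60-base probes, and for some genes the probes differed in level, detection or change. Whether the stretch of the gene that a probe reads accounts for this was not tested. On the Btau_3.1 build, which the file headers give, SERPIND1 has 3 probes on the + strand of chromosome 17. They lie at chr17:75590681-75590740 (A_73_P336726), chr17:75592038-75593245 (A_73_P408496, whose 60 bases span a gap in the genome) and chr17:75594143-75594201 (A_73_117111). The first and second are shown because their changes differed from that of the third:
SERPIND1 A_73_P336726: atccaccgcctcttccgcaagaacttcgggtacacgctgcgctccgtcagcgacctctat
SERPIND1 A_73_P408496: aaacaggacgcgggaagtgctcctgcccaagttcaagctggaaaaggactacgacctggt
The next probes are shown for the kallikreins described below. The KLK6 probe shown, at chr18:56926735-56926794, was not tested and is not the one whose change is given below. The KLK12 probe is at chr18:56981765-56981824. Both are on the - strand.
KLK6 A_73_P277101: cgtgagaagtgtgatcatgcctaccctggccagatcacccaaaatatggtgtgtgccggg
KLK12 A_73_112168: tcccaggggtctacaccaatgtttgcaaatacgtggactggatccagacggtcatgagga
The SERPINA3 genes of cattle are a cluster of near-identical copies. The pair of SERPINA3-7 probes that entered the tests, at chr21:59674367-59674426 and chr21:59570815-59570874 on the + strand, share a run of 39 bases, which is in capitals here:
SERPINA3-7 A_73_P251506: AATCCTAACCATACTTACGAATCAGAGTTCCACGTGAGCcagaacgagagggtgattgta
SERPINA3-7 A_73_P496353: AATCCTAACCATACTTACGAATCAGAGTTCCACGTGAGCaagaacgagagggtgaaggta
A signal on either may come in part from the other copy, and they are not independent readings. Shared runs of 25 or more bases also joined a SERPINA3 probe with the SERPINA3-2 probe (28 bases), another pair of SERPINA3-7 probes (32 bases) and a pair of SERPINB4 probes (40 bases).

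Levels are log2 signals from which the array's 75th percentile was subtracted, so 0 is the 75th percentile of that array, and they are compared between samples for 1 probe at a time. Of the 43803 noncontrol spots, 71.8% to 80.2% were well above background on each array. Of the 96 probes, 52 were well above background on all 20 arrays and 12 on none. Tests were run on probes detected, that is well above background, on 8 or more of the 20 arrays. This left 66 of the 96, for 26 serpin, 2 cystatin and 9 kallikrein genes. The arrays lay on 5 slides, of which 2 held early and 2 held late arrays only. The remaining one, slide 3, combined early arrays (cows 9 and 10) with late ones (cows 1 and 2). The 2 periods therefore largely coincide with slides, and values with slide as a block are given beside the main results. With slide as a fixed block the standard error of a median probe was 4.58 times that of the main fit. Values within slide 3 set 2 late arrays against 2 early arrays of other cows, without pairing. All 6 epithelial markers (such as KRT8 and EPCAM) and all 7 stromal markers (such as VIM and DCN) were tested. None passed the threshold for a change between periods. The log2 change, late minus early, was below 0 for all 7 stromal markers (median -0.31) and for 1 of the 6 epithelial markers (median 0.24). The progesterone receptor PGR and HOXA10 were well above background on all 20 arrays. The samples are bulk tissue, in which fewer cells of a type and less RNA per cell cannot be told apart. The early samples of cows 4 and 9 stood apart from the rest. Their median correlations with the other arrays of the period were 0.944 and 0.967, against 0.971 to 0.985 for the others.

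SERPIND1 and KLK6 had the only probes that passed the threshold for a change between the periods. SERPIND1, the thrombin inhibitor heparin cofactor II, was higher late on 1 of its 3 probes, detected on 4 early and 8 late arrays. KLK6, a trypsin-like kallikrein, was lower late on the 1 of its 2 probes that could be tested. These were 2 of the 66 probes tested (3.03%), 1 in each direction, against 1.13% of all 33759 probes tested on the array, 0.352% higher and 0.776% lower late (limma with cow as a block, adjusted p under 0.05). A count of 2 is too small to set the families apart from the array. With 1 probe per gene name, which takes another SERPIND1 probe, the count was 1 of 37 (2.70%) against 1.30%. No probe of the 66 had early and late levels that did not overlap, against 0.101% of all probes.

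Short of that threshold, values below 0 were more numerous than values above 0 in the main fit. The log2 change was negative for 43 of the 66 probes, against 52.6% of all probes tested, and its median was -0.19, against -0.02. An unadjusted p under 0.05 was reached by 34 of the 66 (51.5%), against 23.8% of all probes, with 10 higher late (background 10.4%) and 24 lower late (background 13.4%). Many of these share a transcript, such as the 8 SERPINB6 probes, and with 1 probe per gene name the figures were 15 of 37 (40.5%) against 22.6%, with a median of -0.08 against 0.02. Without cows 4 and 9 they were 20 of 66 (30.3%) against 22.1%, with a median of -0.04, and 2 of 66 probes passed the adjusted threshold, SERPIND1 and SERPINB9, against 0.924% of all probes. Over all 96 probes with no filter the median was -0.08, against 0.01. Changes above 0 numbered 16 of 37 with 1 probe per gene name and 29 of 66 without cows 4 and 9. With slide as a fixed block the lean was the other way, with 40 of 66 above 0 and a median of 0.29, against -0.03. In 9 or 10 of the 10 cows 14 probes were lower late, against 7.97% of all probes, and 6 were higher late, against 7.19%.

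**Figure D1:**
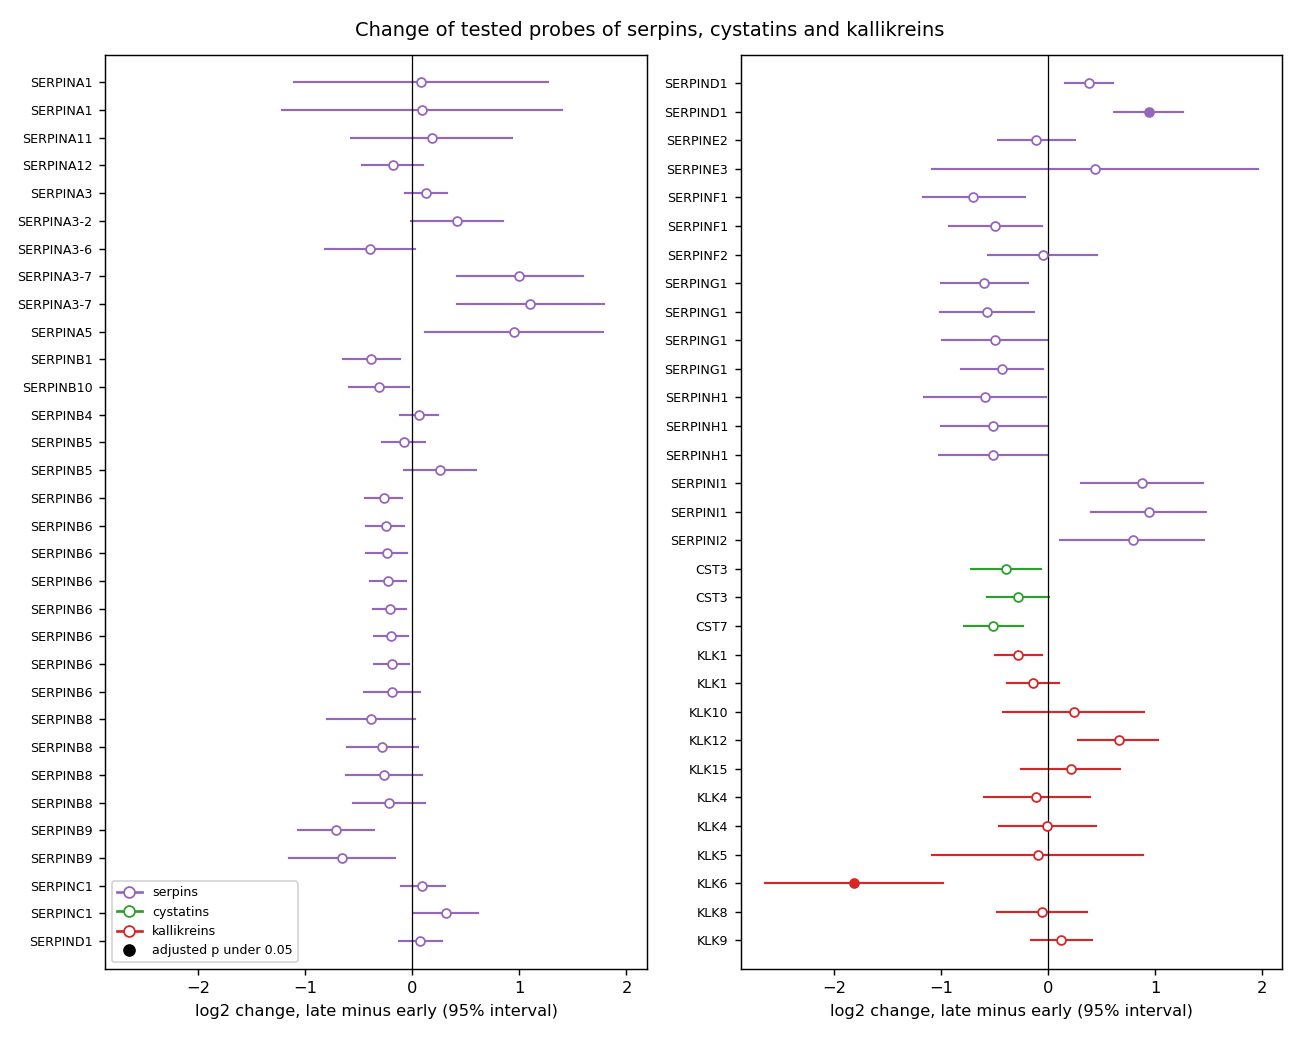
Log2 change, late minus early, with its 95% interval from limma for 63 of the 66 probes tested, 1 row per probe, by gene. Filled points are the 2 probes past an adjusted p of 0.05, SERPIND1 at 0.94 and KLK6 at -1.81; most serpin B, F, G and H probes lie left of 0, and the serpin C, D and I probes lie right of it.

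Among the serpins of clotting and fibrinolysis, 1 SERPIND1 probe was past the threshold. SERPIND1 on A_73_117111 ranged from -8.81 to -6.55 early (median -6.91) and from -6.96 to -5.56 late (median -6.25). It rose in 10 of 10 cows, but the ranges overlapped, and the probe was dim, detected on 4 early and 8 late arrays. The change was 0.94 ± 0.15 on the log2 scale (SE, n = 10 cows, limma adjusted p = 0.0227). The early mean of -7.18 rests mostly on arrays where the probe was not well above background, and its 8 late detections alone met the filter, so no fold is given. With the filter on all 20 arrays the probe was not tested, and none of the 52 probes left was called (limma, with 27 at an unadjusted p under 0.05), against 1.11% of all probes. On A_73_P408496 the early levels were -7.03 to -6.05 (median -6.42) and the late ones -6.28 to -5.87 (median -6.07). The change there was 0.38 ± 0.10 (SE, adjusted p = 0.0756), positive in 9 of 10 cows. On A_73_P336726, well above background on all 20 arrays, the early levels were -5.86 to -5.27 (median -5.47) and the late ones -5.85 to -5.11 (median -5.38). Its change was 0.07, with a 95% interval of -0.13 to 0.28, which does not include the 0.94 of the dim probe. The SERPIND1 call was lost without cow 1 and without cow 8, and the change was 0.84 to 1.01 over the 10 fits that left out a cow. After normexp background correction the change was 0.25 (adjusted p = 0.0439), and it was 0.73 (adjusted p = 0.0104) without cows 4 and 9. It was 0.66 with slide blocked, not past the threshold. Within slide 3 it was 1.64, and the early samples there include that of cow 9, the lowest of the period at -8.81.

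F2, the gene of prothrombin and so of the protease that SERPIND1 blocks, rose in 9 of 10 cows, by 0.76 ± 0.15 in log2 units (SE, adjusted p = 0.0439). It was the only one of 10 tested genes of plasminogen activation and coagulation to pass the threshold. PLAU, the urokinase-type plasminogen activator, was at -0.85 ± 0.21 (SE, adjusted p = 0.0667). SERPINC1, antithrombin, had a level of -2.91 to -2.01 early and -2.61 to -1.52 late on A_73_P031806 (medians -2.56 and -2.26), a change of 0.31 ± 0.14 (SE, adjusted p = 0.197). Its other probe had a change of 0.09. SERPINF2, alpha-2-antiplasmin, had a change of -0.05 ± 0.23 (SE, adjusted p = 0.905), and the early sample of cow 4 was the highest of all at -4.53.

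SERPINE2, protease nexin 1, which blocks thrombin and plasminogen activators, had a change of -0.11 ± 0.16 (SE, adjusted p = 0.705). SERPINB2, plasminogen activator inhibitor 2, was not tested, since none of its 3 probes reached 8 arrays, and the highest count was 4 early and 1 late arrays.

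SERPINA5, the protein C inhibitor, was high in every late sample and split among the early ones. RefSeq gives the transcript of its only probe another name, LOC338050. Early levels on A_73_117792 (chr21:59520168-59520227, + strand) ran from 0.00 to 3.69 (median 3.38), and late levels from 2.90 to 3.99 (median 3.64). Cows 4, 9 and 10 were at 1.16, 1.36 and 0.00 early, while the other 7 early samples were at 2.60 or above. The level was higher late in 9 of 10 cows, by 0.95 ± 0.38 in log2 units (SE, adjusted p = 0.163), which does not pass, and 0.60 without cows 4 and 9. The low early arrays of cows 9 and 10 lay on slide 3, and that of cow 4 on slide 1. A fixed block for slide put the SERPINA5 change at 1.42, and the arrays of slide 3 alone put it at 2.87. The part of the slide in the low early levels was not tested.

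SERPINI1, neuroserpin, an inhibitor of tissue plasminogen activator, behaved alike on both probes. On A_73_107399 early levels were -1.73 to 1.66 (median 0.65) and late levels 0.97 to 1.93 (median 1.47). The lowest sample was the early one of cow 4, with the next early sample at 0.13. The change was 0.94 ± 0.25 (SE, adjusted p = 0.0745) on that probe and 0.88 ± 0.26 (SE, adjusted p = 0.0919) on A_73_P126976, positive in 9 of 10 cows on each. Without cows 4 and 9 these were 0.64 and 0.56, and with slide as a block they were -0.17 and -0.31, opposite in sign. Within slide 3 they were 1.08 and 1.03. SERPINI2, a related serpin named for its expression in pancreas, had 0.79 ± 0.31 (SE, adjusted p = 0.159), and 0.31 without cows 4 and 9.

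**Figure D2:**
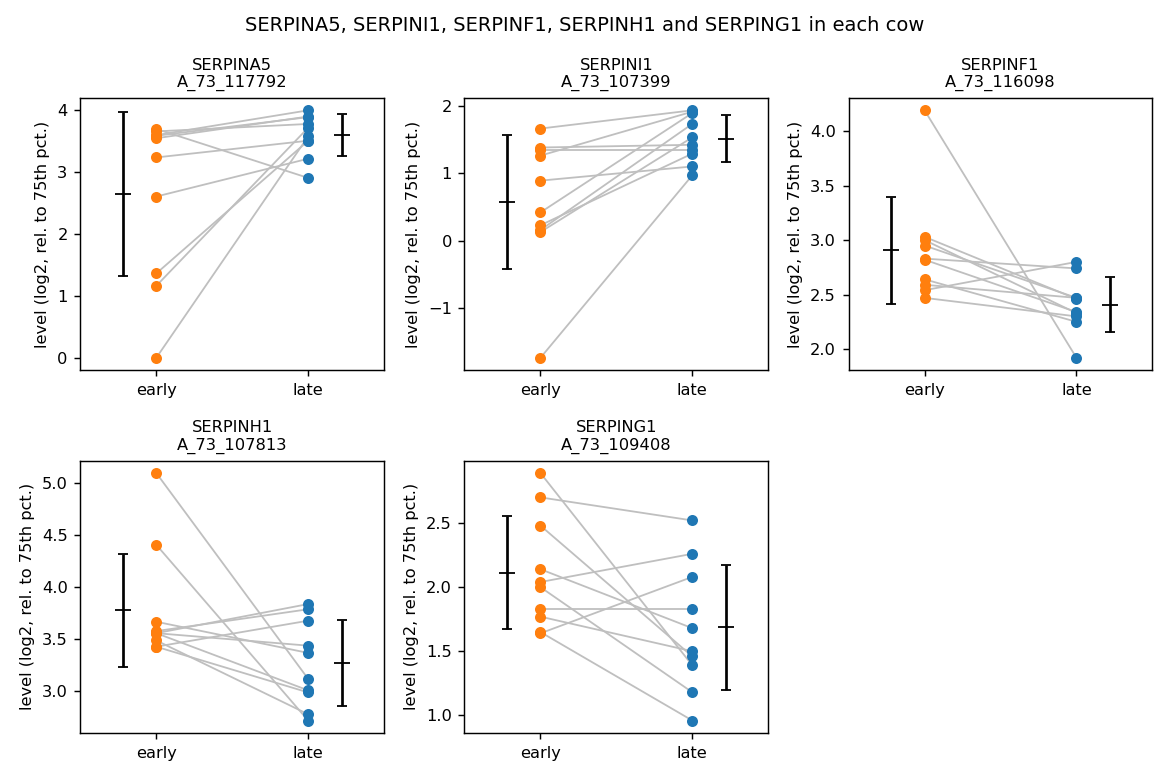
Level of SERPINA5, SERPINI1, SERPINF1, SERPINH1 and SERPING1 on 1 probe each (log2, relative to the array's 75th percentile) in early (orange) and late (blue) samples, with a line for each of the 10 cows; black bars are mean ± SD. Early SERPINA5 splits into 3 samples from 0.00 to 1.36 and 7 from 2.60 to 3.69, and the early sample of cow 4 is the lowest for SERPINI1 at -1.73 and the highest for SERPINF1 at 4.19 and SERPINH1 at 5.10.

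SERPING1, the C1 inhibitor of complement and of plasma kallikrein, had negative changes on all 4 probes, from -0.43 to -0.60, none past the threshold. On A_73_P397871 early levels were -3.82 to -2.29 (median -3.03) and late levels -4.36 to -2.60 (median -3.61). The periods overlapped, and the level was lower late in 9 of 10 cows, with a change of -0.60 ± 0.18 (SE, adjusted p = 0.0997), and -0.37 without cows 4 and 9. On A_73_109408, which read at 1.64 to 2.89 early and 0.96 to 2.52 late (medians 2.02 and 1.59), the change was -0.43 ± 0.17 (SE, adjusted p = 0.171).

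SERPINH1, the collagen chaperone of the endoplasmic reticulum also called HSP47, and SERPINF1, pigment epithelium-derived factor, are serpins without protease inhibition. SERPINH1 on A_73_107813 was at 3.43 to 5.10 early (median 3.56) and 2.72 to 3.84 late (median 3.25). The early samples of cows 4 and 9 were the highest. The 3 probes had changes of -0.51 to -0.59 (adjusted p = 0.197 to 0.206), and -0.17 to -0.21 without cows 4 and 9. SERPINF1 had -0.50 ± 0.20 (SE, adjusted p = 0.163) on A_73_116098 and -0.70 ± 0.22 (SE, adjusted p = 0.1) on A_73_P042221, each negative in 9 of 10 cows. Without cow 4 the first was -0.30, and without cows 4 and 9 they were -0.32 and -0.46. Of 10 collagen and collagen-processing genes tested beside SERPINH1, none passed the threshold. The prolyl hydroxylase P4HA2 had a log2 change of -0.34 and the prolyl isomerase FKBP10 -0.38, the 2 of smallest p. With slide as a block SERPINH1 on A_73_107813 was at 0.47 and SERPINF1 on A_73_116098 at 1.03, opposite in sign. Within slide 3 they were at -0.83 and -0.39.

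The clade B serpins are mostly kept inside the cell, where they block proteases of leukocyte granules and lysosomes. SERPINB9, the granzyme B inhibitor, had levels of -4.62 to -3.31 early (median -4.19) and -5.41 to -4.54 late (median -4.85) on A_73_P032531. It was lower late in 9 of 10 cows, and its ranges overlapped only in a narrow band. The change was -0.71 ± 0.16 (SE, adjusted p = 0.0562), short of the threshold. It was past the threshold in 4 of its 25 alternative fits. These were without cows 4 and 9, at -0.48 (adjusted p = 0.0476), without cow 5, at -0.80 (adjusted p = 0.0458), with cow as a random effect (adjusted p = 0.00982) and with no block for cow (adjusted p = 0.0342). The change was -0.04 with slide blocked and -0.92 within slide 3. The other SERPINB9 probe had a change of -0.66 ± 0.23 (SE, adjusted p = 0.123).

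SERPINB6, a cathepsin G inhibitor, gave small and uniform values over its 8 probes, -0.19 to -0.27, all negative. On A_73_P499098 the early levels were -0.08 to 0.59 (median 0.31) and the late ones -0.59 to 0.28 (median 0.08), with a change of -0.27 ± 0.08 (SE, adjusted p = 0.0875), lower late in 9 of 10 cows. SERPINB1, the leukocyte elastase inhibitor, had -0.39 ± 0.12 (SE, adjusted p = 0.103) on its tested probe, and SERPINB8, a furin inhibitor, -0.22 to -0.39 over 4 probes. SERPINB10 had -0.31 (adjusted p = 0.175). SERPINB1, SERPINB6 and SERPINB9 lie together on chromosome 23, with 11 of their 12 probes between 51673668 and 51746370 and 1 SERPINB6 probe without a position in the files. All 10 tested probes placed there, 7 of them for SERPINB6, were below 0 (median -0.23), against 52.6% of all probes. They stand for 3 genes, probes of the same gene are not independent readings, and none passed the threshold. With slide as a block SERPINB1 was at 0.13 and the second SERPINB9 probe at 0.98, and the other tested probes there stayed below 0. The SERPINA genes on chromosome 21, between 59219038 and 59715030, had 2 of 10 tested probes below 0 (median 0.15).

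Some markers of macrophages and of T and NK cells were also lower late, and no neutrophil marker passed the test. Of 6 macrophage markers tested, 3 were lower late (CD68, MSR1 and GPNMB, with log2 changes of -1.79, -0.85 and -2.94), and all 6 were below 0. The summed macrophage level, the log2 of the added linear signals of the markers on that scale, was 2.89 to 5.13 early and 1.72 to 3.16 late. Of 6 T and NK cell markers, all of them tested, 1 was lower, NKG7 at -1.20 (adjusted p = 0.0255), with a summed level of 2.36 to 3.20 early and 2.08 to 3.24 late. GZMB, the target of SERPINB9, changed by -0.34 ± 0.20 (SE, adjusted p = 0.315), and none of 4 leukocyte serine protease genes tested passed. Of the 5 neutrophil markers tested, 2 were below 0 (median 0.17), and their summed level was -2.04 to 3.52 early, highest in cow 4, and -1.83 to 0.94 late. The part of these cells in the serpin values was not tested.

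CST7, cystatin F, a lysosomal cystatin of cytotoxic lymphocytes and phagocytes that regulates cathepsin C, was among the probes nearest to the threshold. Levels on A_73_110765 (chr13:42734388-42734447, + strand) were -4.11 to -2.86 early (median -3.46) and -4.59 to -3.61 late (median -3.86). They were lower late in 9 of 10 cows and overlapped. The change was -0.51 ± 0.13 (SE, adjusted p = 0.0675), -0.47 without cows 4 and 9 and -1.24 with slide as a block. It passed in 1 of its 25 alternative fits, that with cow as a random effect (adjusted p = 0.0447). CTSC, cathepsin C, fell by 1.01 in log2 units (adjusted p = 0.0435), and CTSH fell by 0.63 (adjusted p = 0.0420), each in 10 of 10 cows. They were the 2 of 11 tested cathepsin and legumain genes past the threshold, and 9 of the 11 were below 0. CST3, cystatin C, the general extracellular inhibitor of cathepsins, was at 4.68 to 6.0 early (median 5.09) and 4.68 to 5.39 late (median 4.78) on A_73_119926. Its change was -0.28 ± 0.13 (SE, adjusted p = 0.223) there and -0.39 ± 0.15 (SE, adjusted p = 0.148) on the other probe. Without cow 9 the first was -0.18, and without cows 4 and 9 they were -0.13 and -0.21. CST8 was not tested, with its 2 probes above background on 1 array in all. Of the other cystatin-fold genes, CSTA, an intracellular cystatin of epithelia, had a change of 2.07 ± 0.80 (SE, adjusted p = 0.153), and none of 3 tested passed. Nor did any of 12 tested protease inhibitors of other families, among which SLPI, an inhibitor of leukocyte elastase, had -1.79 ± 0.60 (SE, adjusted p = 0.118) and SPINT1, an inhibitor of epithelial serine proteases, 0.44 ± 0.18 (SE, adjusted p = 0.163).

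**Figure D3:**
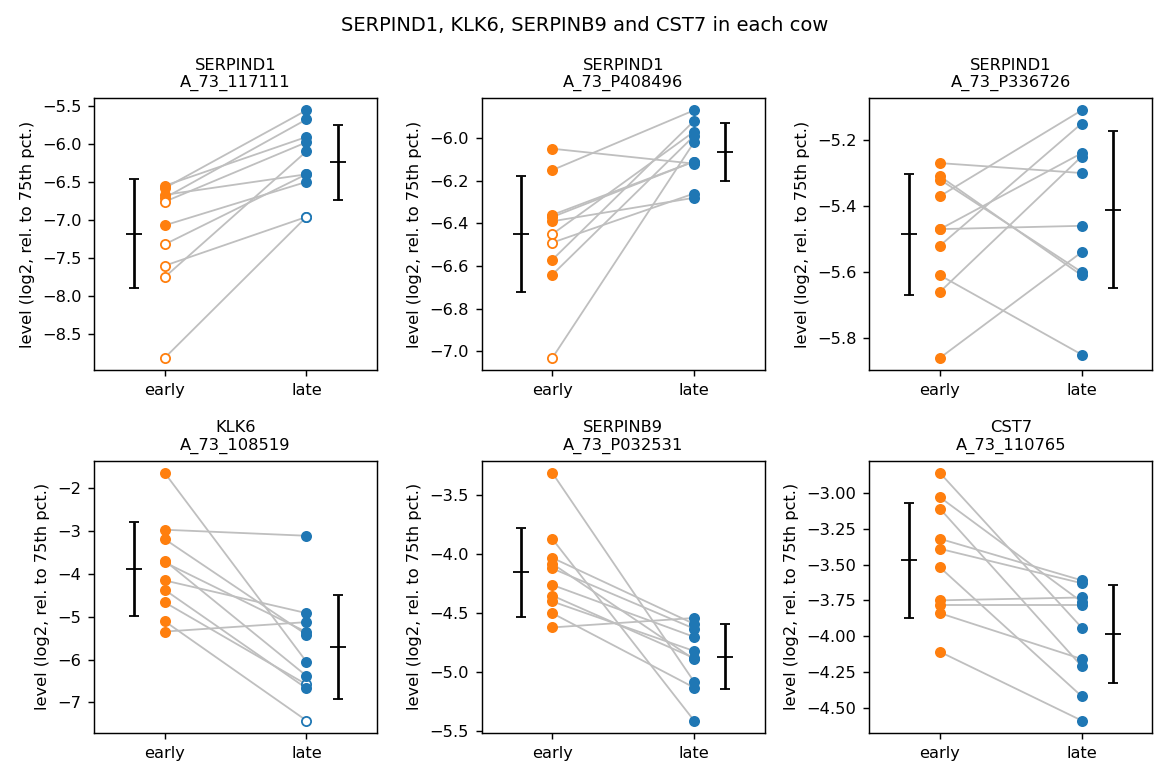
Level of the 3 SERPIND1 probes and of KLK6, SERPINB9 and CST7 (log2, relative to the array's 75th percentile) in early (orange) and late (blue) samples, with a line for each of the 10 cows; open points were not well above background and black bars are mean ± SD. SERPIND1 rises in 10 of 10 cows on A_73_117111 and in 6 of 10 on A_73_P336726, and KLK6 falls in 9 of 10.

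The 13 kallikrein genes lie side by side on chromosome 18, with all 16 probes between 56860509 and 57024021, and 7 of the 11 tested probes were below 0 (median -0.06). KLK6 on A_73_108519 (chr18:56924948-56925007, - strand) had levels of -5.35 to -1.66 early (median -3.95) and -7.42 to -3.12 late (median -5.74). The early sample of cow 9 was the highest and the late sample of cow 6 the highest of its period, and the periods overlapped. It fell in 9 of 10 cows, by 1.81 ± 0.38 on the log2 scale (SE), a 3.50-fold fall with an adjusted p of 0.0482 in limma. Detection was on 10 early and 8 late arrays. The call rested on each of 9 cows: it was kept without cow 5 (adjusted p = 0.0381) and lost on leaving out any 1 of the others, with an adjusted p of up to 0.104. Without cows 4 and 9 the change was -1.43 (adjusted p = 0.0757), and with slide blocked it was -0.25. Within slide 3, which holds the early sample of cow 9, it was -2.37. The call was also lost after normexp background correction, at -0.92 (adjusted p = 0.0721), with no block for cow (adjusted p = 0.0821), with no filter on dim probes (adjusted p = 0.0672) and with slide fitted as a random effect (adjusted p = 0.0790). The other KLK6 probe, A_73_P277101, was detected on 3 early and 1 late arrays and was not tested. Its medians were -7.20 early and -7.38 late, with 8 of 10 cows lower late.

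KLK5 and KLK7, trypsin-like and chymotrypsin-like proteases known for shedding of the outer skin, had their highest early level in the same sample as KLK6. KLK5 on A_73_101553 was at 0.87 in the early sample of cow 9 and at 0.82 in the late sample of cow 6, in a range of -3.78 to 0.87 early and -3.50 to 0.82 late. KLK7, not tested, was at -3.69 in the early sample of cow 9 and at -6.28 in the late sample of cow 6, with medians of -7.91 and -8.65. The change of KLK5 was -0.09 ± 0.45 (SE, adjusted p = 0.916). These 2 genes were singled out after their values were seen. The early sample of cow 9 also had the lowest summed level of the epithelial markers, 4.46 against a median of 5.95, and the highest of the macrophage markers, and the part of either in the kallikrein values was not tested.

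KLK12 was far higher in cow 7 than in the other cows in both periods. On A_73_112168 cow 7 was at 0.35 early and at 0.34 late, while the other cows were at -4.39 to -2.68 early and -3.48 to -2.23 late. The level was higher late in 9 of 10 cows, with a change of 0.66 ± 0.17 (SE, adjusted p = 0.0728). The change was 0.73 without cow 7 and 0.49 without cows 4 and 9. KLK10 was at 0.04 in the early sample of cow 4 and at -4.30 to -2.04 in the other early samples, with a change of 0.24 ± 0.30 (SE, adjusted p = 0.648).

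KLK1, the tissue kallikrein that releases kinins, had a change of -0.14 ± 0.11 (SE, adjusted p = 0.446) on A_73_P033271, with levels of 0.65 to 1.51 early and 0.54 to 1.16 late, and -0.28 (adjusted p = 0.134) on its other probe. KLK4, an enamel matrix protease that is also expressed in prostate, had -0.11 ± 0.22 (SE, adjusted p = 0.798). KLK8, KLK9 and KLK15 had changes of -0.06, 0.12 and 0.21. KLK11, KLK13 and KLK14 were not tested, with at most 4 arrays above background each. None of 8 tested genes of the kinin system and of protease-activated receptors passed. F2RL3, a thrombin receptor, had 0.22 (adjusted p = 0.351) and CPN1, a kinin-cutting carboxypeptidase, 0.64 (adjusted p = 0.320).

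**Figure D4:**
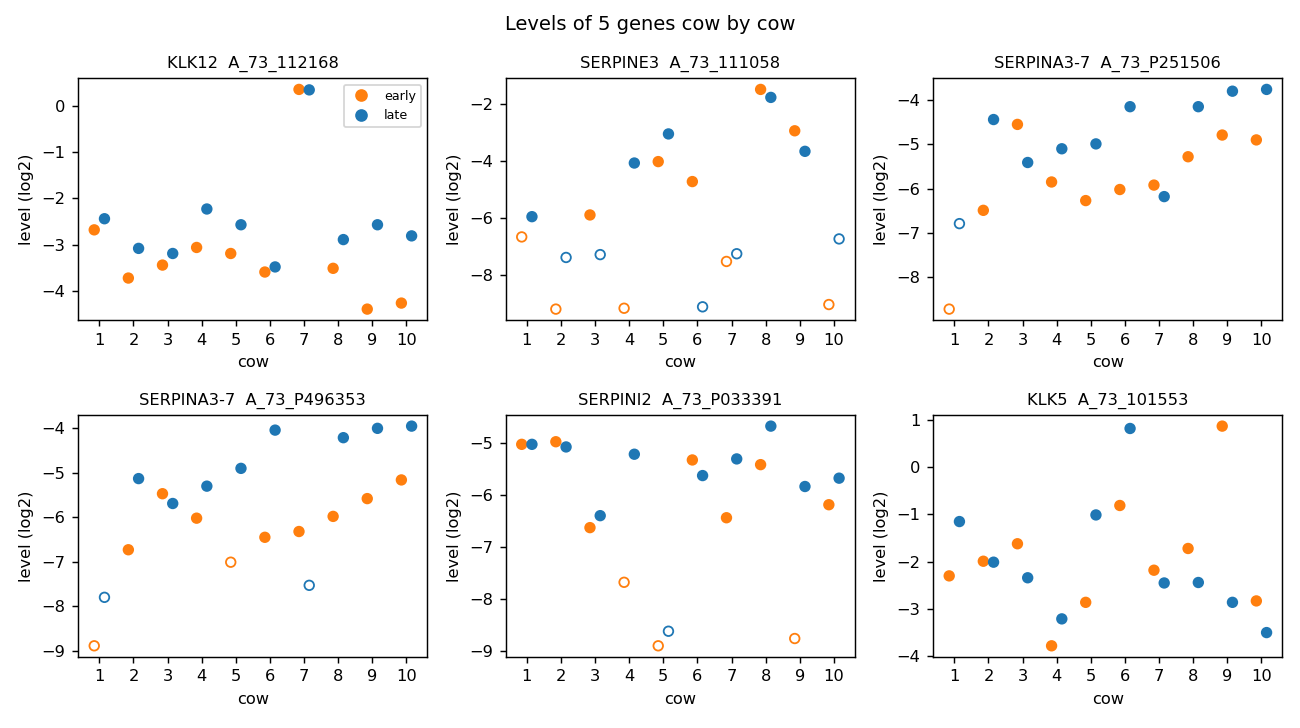
Level of KLK12, SERPINE3, SERPINA3-7 (both tested probes), SERPINI2 and KLK5 (log2, relative to the array's 75th percentile) by cow in early (orange) and late (blue) samples; open points were not well above background. KLK12 is near 0.35 in both samples of cow 7, SERPINE3 is highest in both samples of cow 8, and SERPINA3-7 is lowest in the early sample of cow 1.

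SERPINE3, singled out after its values were seen, also varied by cow. On A_73_111058 it ran from -9.19 to -1.49 early and from -9.11 to -1.77 late, and cow 8 was the highest in both periods. Detection was on 5 early and 5 late arrays, and the change was 0.44 ± 0.70 (SE, adjusted p = 0.723).

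In the SERPINA3 group, whose human relative alpha-1-antichymotrypsin blocks chymotrypsin-like proteases, the SERPINA3-7 probes shown above had the largest changes of the 5 tested probes. A_73_P251506 was at -8.72 to -4.55 early (median -5.88) and -6.79 to -3.76 late (median -4.71), and A_73_P496353 at -8.89 to -5.16 (median -6.17) and -7.80 to -3.95 (median -5.02). Cow 1 was the lowest in both periods on both probes, and each was higher late in 8 of 10 cows. The changes were 1.0 ± 0.27 (SE, adjusted p = 0.0755) and 1.1 ± 0.31 (SE, adjusted p = 0.0836). The second probe passed in 1 of its 23 alternative fits, that without cow 7, at 1.36 (adjusted p = 0.0356). Within slide 3 (late samples of cows 1 and 2, early samples of cows 9 and 10) the changes were -0.77 and -1.1. With slide blocked they were 4.25 and 4.47. The other pair of SERPINA3-7 probes was not tested, and A_73_P040166 had medians of -6.71 early and -6.94 late. SERPINA3-6 had a change of -0.40 (adjusted p = 0.230), SERPINA3-2 of 0.42 (adjusted p = 0.217) and SERPINA3 of 0.13 ± 0.09 (SE, adjusted p = 0.389). SERPINA1, alpha-1-antitrypsin, the main plasma inhibitor of neutrophil elastase, was dim, with levels of -8.52 to -2.12 early and -7.37 to -4.31 late on A_73_P304436. On that probe cow 4 was the highest in both periods, and the change was 0.08 ± 0.54 (SE, adjusted p = 0.938). The other tested SERPINA1 probe had a change of 0.09, with cow 4 highest early and cow 7 highest late.

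Probes of the same gene mostly had the same sign. Of 16 genes with 2 or more tested probes, 15 had all of them on the same side of 0, and SERPINB5, maspin, had -0.08 and 0.26. No probe was tested for 12 genes. SERPINB7 was not tested, with 6 early and 1 late arrays above background. It was at -0.05 in the early sample of cow 4, and its median was -6.55 early and -8.41 late. SERPINA7, thyroxine-binding globulin, was not well above background on any of the 20 arrays.

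The early sample of cow 4 had the highest of the 20 levels for 24 of the 66 tested probes (36.4%), against 21.9% of all probes tested, and the early sample of cow 9 for 10 (15.2%, against 11.3%). The late sample of cow 9 had the lowest level for 18 (27.3%, against 21.1%). In the early sample of cow 4 SERPINF1, SERPINH1, SERPINF2, SERPINB8, KLK10 and SERPINA1 were high, and SERPINI1 was low. That sample also had the highest summed early levels of neutrophil markers (3.52 against a median of -1.01) and of smooth muscle markers (6.55 against 5.09). The same held for stromal markers (8.5 against 8.21) and epithelial markers (6.3 against 5.95). It held too for cathepsins and legumain (7.44 against 7.11) and for collagen processing genes (8.58 against 8.15). Its summed levels were the lowest for plasminogen activation and coagulation genes (5.8 against 6.16) and for leukocyte serine proteases (-0.5 against 1.23). The part of any of these in the values was not tested. The early SD was larger than the late one for 40 of the 66 probes (60.6%), close to the 61.2% of all probes, and for 29 (43.9%) without cows 4 and 9, against 46.5%.

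**Figure D5:**
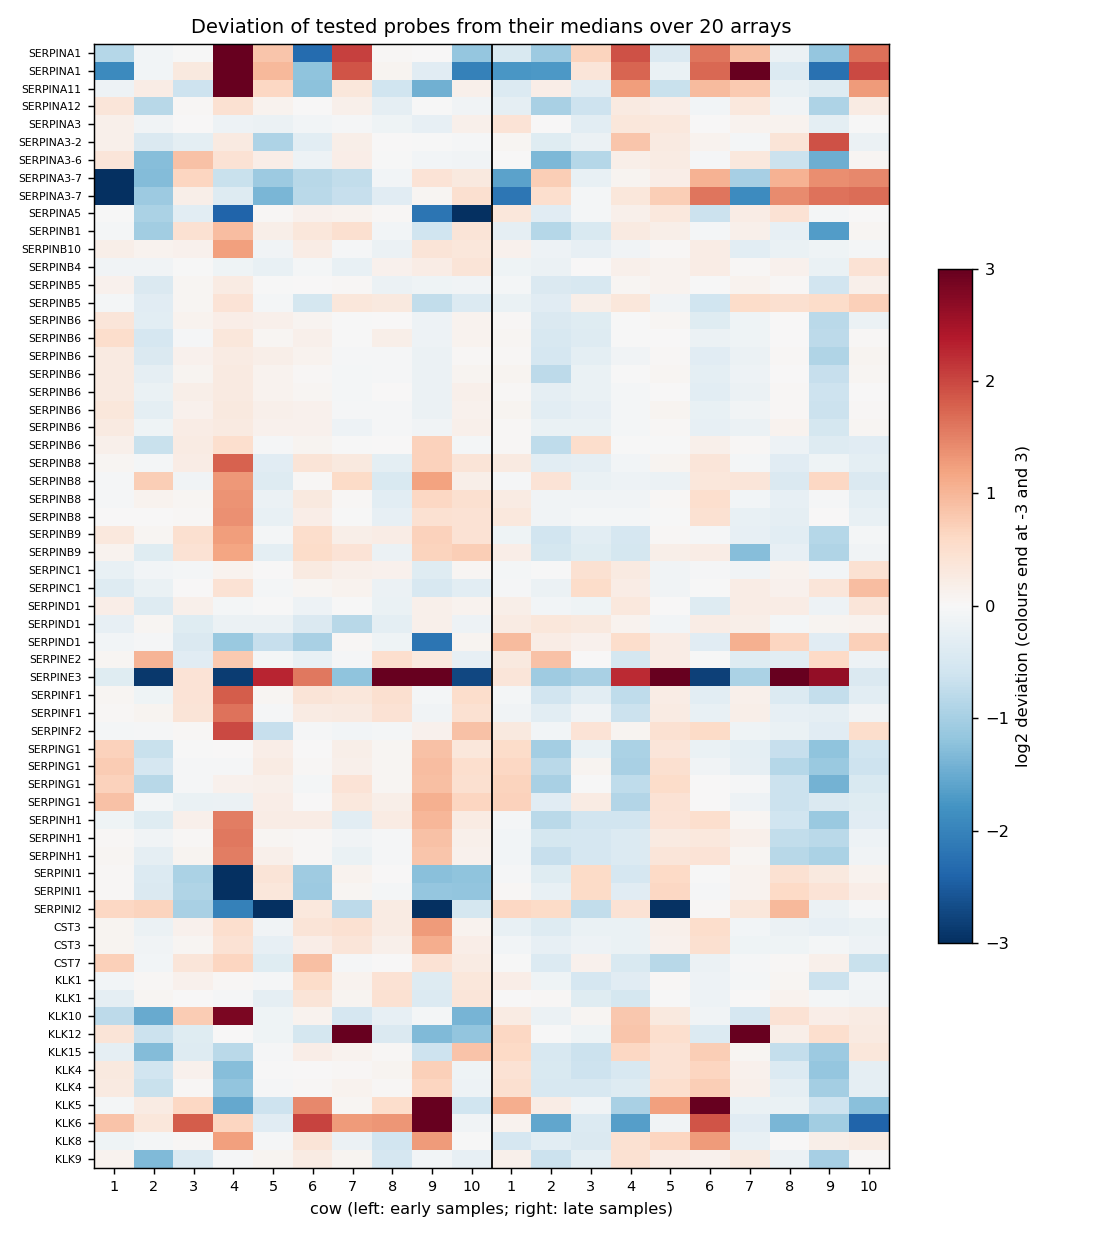
Deviation of 63 of the 66 tested probes from the probe's median over the 20 arrays (colour, log2, ends at -3 and 3), 1 row per probe with its gene name and 1 column per sample, with the 10 early samples left of the line and the 10 late samples right of it, by cow. The early sample of cow 4 is the lowest for SERPINI1 and the highest for SERPINF1 and SERPINH1. In both periods KLK12 is highest in cow 7 and SERPINE3 in cow 8.

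Within a period, no probe passed the threshold for a trend with the day of sampling. Among the 10 early samples 0 of 66 probes passed in limma, as did 0% of all probes, and 8 of the 66 had an unadjusted p under 0.05, against 5.28% of all. Among the 10 late samples 0 of 66 passed and 2 had an unadjusted p under 0.05, against 1.13% of all. In the early period CST7 had the slope of smallest p, -0.24 ± 0.07 per 10 days (SE, adjusted p = 0.909). SERPINI1 had slopes of 0.50 and 0.52 and SERPINB9 of -0.21 and -0.26, all with an adjusted p of 0.909.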

How the data were processed

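Endometrial RNA of 10 cows, 2 samples each, was hybridised to 20 one-colour Agilent arrays. Per the submitters' processing notes, image extraction used Agilent Feature Extraction 10.5.1.1. Per the file headers, the deposited intensity values are background-subtracted and detrended within an array. The deposited value table holds log2 values that matched the same scaled signals centred per probe (column medians -0.15 to 0.05), and it was used as an alternative. Control and outlier-flagged spots were left out, spots of a probe were averaged, and log2 values were scaled to each array's 75th percentile. Of 96 probes, 64 matched a RefSeq table (ARS-UCD2.0, names only) by accession, 28 by symbol and 4 not at all; the accession of the SERPINA5 probe belongs there to LOC338050.

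Period was tested two-sided with limma 3.58.1 (lmFit, eBayes; R 4.3.3), with cow as a fixed block and Benjamini-Hochberg adjustment over all 33759 probes tested. The pairing comes from titles and animal numbers. Late source names give other cow numbers, and the labels do not settle this. Deviations of a cow's arrays correlated at -0.11 to 0.77 (median 0.41), against -0.03 between cows, and were above 0.1 in 8 of 10 cows. Day trends were slopes per 10 days within a period. Alternatives were no or a random cow effect, normexp (offset 50), quantile and median scaling, the deposited table, other filters, 1 probe per gene name, a trended variance, a slide block, a minimum change of 1.5-fold, and cows left out.

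On simulated data of 33457 probes, 34% of changes of 0.5 on the log2 scale were recovered, 76% of 1, 94% of 2 and 100% of 3, with 13 false calls. Noise there was normal and independent between probes, with no slide effect and no background limit, and 50 probes changed at each size. The rates hold for that setting only. The families, lists and tests were chosen with earlier results of these data known. Values with their spread are given for the probes past the threshold, the 12 of smallest p, those changed by at least 1 in 8 or more cows, and a representative gene per role. Of these, 1 gene is not reported here; its probes stay in the counts over all tested probes.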

Additional observations from a re-analysis of the deposited data

Results flagged for a closer look

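In 12 of 56 groups of 10 samples, 1 sample lay far from the rest by Dixon's test, which flags about 1 in 20 groups by chance. The early sample of cow 4 gave 4 of them: KLK10 at 0.04, with the next early sample at -2.04, SERPINF1 at 4.19, and SERPINI1 at -1.73 and -4.09 on its 2 probes. KLK12 was at 0.35 early and 0.34 late in cow 7. SERPINA3-7 was at -8.72 and -8.89 in the early sample of cow 1 on 2 probes that share sequence. The early sample of cow 9 had CST3 at 6.0 and SERPIND1 (A_73_117111) at -8.81. CST3 was at 5.39 in the late sample of cow 6, and SERPINB6 (A_73_P053981) at -0.03 in the late sample of cow 9. Probes of these families are not independent of each other within a sample.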

How the results depend on the processing

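The pairing by cow mattered: with no replicate block 195 probes of the array were called and 1 of the families (SERPINB9), against 381 and 2, and with cow as a random effect 1536 and 6. Quantile normalization gave 687 on the array, no filter 135 and 1, the filter on all 20 arrays 320 and 0, 1 probe per gene name 252 and 1, normexp 380 and 1, slide as a random block 64 and 1, and the 1.5-fold minimum 5 and 0. Slide as a fixed block and slide 3 alone gave 0 and 0 in limma, with 586 and 2727 probes of the array at an unadjusted p under 0.05, 5 and 6 of them in the families; there the standard error of a median probe was 4.58 times as large with the block. Leaving out 1 cow gave 67 to 465 and 0 to 3. Of the calls on the array 31.2% were higher late, against 46.6% after normexp, 42.5% after quantile normalization and 41.0% after median scaling. With slide as a fixed block 33 of 66 signs turned: SERPINI1 to -0.17 and -0.31, SERPIND1 to -0.22 and -0.36 on its other probes, SERPINB1 to 0.13, CST3 to 0.23, SERPINH1 to 0.47, KLK1 to 0.56, SERPINF1 to 1.03, SERPINF2 to 1.47 and SERPINE2 to 1.56. Within slide 3, 13 turned: SERPIND1 (A_73_P336726) to -0.08, SERPINA1 to -0.19, SERPINA3-7 to -0.77 and -1.10, KLK1 to 0.04 and SERPINE2 to 0.57. SERPINA1 was at -0.06 after normexp. Without cows 4 and 9, KLK4 was at 0.00 and SERPINF2 at 0.23. Over the fits that left out 1 cow, 10 of the 66 tested probes had both signs; of these, SERPINA1 (A_73_P304436) ranged from -0.34 to 0.34, SERPINE2 from -0.16 to 0.02, SERPINF2 from -0.19 to 0.15 and KLK4 (A_73_P140886) from -0.20 to 0.09. The day trends gave 0 calls throughout. The cause of these changes was not tested, and dim probes such as SERPIND1 are limited by signal over background.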
